A study of Mus musculus with 2 samples.

Results

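The 94 protein-coding mouse genes whose symbols begin with Kcn in GENCODE M21 encode the pore-forming and auxiliary subunits of potassium channels, and they are described here by their open chromatin in hippocampal tissue. They were taken by symbol, with no measured value, from the 21938 genes annotated as protein-coding on the 19 autosomes, X and Y. The tissue came from male B6CASTF1/J mice, an F1 hybrid strain, aged 14 days, and the labels call it a layer of the hippocampus without naming the layer. There was 1 group of 2 biological replicates, no treatment and no second genotype. Each label speaks of 3 males and both carry the same donor identifier, so it is not known which animals went into which replicate, and spreads between the replicates may be technical.

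In DNase-seq, the enzyme DNase I cuts where DNA is not wrapped or covered by protein, and clusters of cuts are called as peaks. The authors gave each peak a value with no stated unit, which is used here only to describe and rank peaks. A promoter peak lay within 1000 bp of any annotated start site of a gene, and a promoter is called open where each replicate had such a peak. Paired values are those of replicate 1 and then replicate 2, each from the highest peak of that replicate. These peaks overlapped in 68 of the 73 potassium channel genes with an open promoter. They did not in 5, among them Kcna4, Kcnh3, Kcnk9 and Kcnt1, whose paired values are thus from different peaks. A peak outside promoters lay in the gene or within 10 kb of it, and more than 1000 bp from the start of every annotated gene. It counted as shared where the peaks of both replicates overlapped.

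Potassium channels set the resting potential of neurons, end each action potential and limit how often a neuron fires. Voltage-gated subunits form tetramers, inward rectifiers and two-pore-domain subunits carry current near rest, and calcium-activated channels open as calcium enters. Each class has many genes, and neurons and glia use different sets of them.

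The promoters of these genes were open more often than those of all genes, but their peaks were low. The promoter was open in 73 of 94 potassium channel genes (77.7%), against 64.3% of all protein-coding genes. This excess was in the authors' longer peak list and not in their shorter one, as given below. Among those 73 genes the median value of the highest promoter peak was 1.28, against 2.87 among the 14116 genes of the genome with an open promoter. Outside promoters, 76 of 94 potassium channel genes (80.9%) had a shared peak, against 53.4% of all genes. This was not particular to them: the share was 84.1% over 44 genes of calcium, sodium and HCN channels, as given below. The design has no second group, so these are descriptions of 1 tissue and no test was made.

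Sequences are shown for the 5 highest shared peaks outside promoters and for 3 promoters, since both kinds of site carry the pattern above. The promoter of Kcnj2 is among the highest of the family. That of Kcnd2 is rich in CpG and that of Kcnt2 poorer, and both have values below the median of all genes. Each is the plus strand of mm10 (GRCm38), from the longest part of the replicate 1 peak free of annotated untranslated regions and RefSeq exons. A longer part was cut to its middle 300 bases. Some stretches, as those upstream of Kcnn1 and at Kcnt2, thus cover only 1 side of the peak. Capitals mark replicate 1 footprints, the short stretches that the authors called as protected from cutting at a false discovery rate of 0.01.
Kcnn1 upstream, chr8:70865692-70865920: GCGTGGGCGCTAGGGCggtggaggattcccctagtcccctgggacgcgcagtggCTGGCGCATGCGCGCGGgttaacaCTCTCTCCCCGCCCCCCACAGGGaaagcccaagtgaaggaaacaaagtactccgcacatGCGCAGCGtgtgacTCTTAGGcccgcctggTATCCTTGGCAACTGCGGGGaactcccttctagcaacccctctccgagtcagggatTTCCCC
Kcnn1 downstream, chr8:70841141-70841340: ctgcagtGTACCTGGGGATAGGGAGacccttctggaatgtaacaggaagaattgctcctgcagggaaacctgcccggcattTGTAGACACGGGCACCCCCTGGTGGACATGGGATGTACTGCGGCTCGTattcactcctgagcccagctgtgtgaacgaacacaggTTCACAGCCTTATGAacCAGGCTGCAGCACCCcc
Kcnab2 intron, chr4:152434921-152435120: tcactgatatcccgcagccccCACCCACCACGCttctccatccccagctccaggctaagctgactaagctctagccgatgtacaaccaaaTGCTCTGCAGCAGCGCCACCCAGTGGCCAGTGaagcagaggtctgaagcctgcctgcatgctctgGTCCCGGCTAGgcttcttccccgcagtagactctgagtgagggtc
Kcna6 downstream, chr6:126702261-126702500: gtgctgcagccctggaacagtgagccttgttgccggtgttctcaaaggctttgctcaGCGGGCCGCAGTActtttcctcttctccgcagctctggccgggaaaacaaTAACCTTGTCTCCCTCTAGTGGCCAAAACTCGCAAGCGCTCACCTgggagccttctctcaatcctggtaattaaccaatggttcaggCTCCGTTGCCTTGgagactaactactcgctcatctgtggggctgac
Kcnip2 intron, chr19:45813361-45813560: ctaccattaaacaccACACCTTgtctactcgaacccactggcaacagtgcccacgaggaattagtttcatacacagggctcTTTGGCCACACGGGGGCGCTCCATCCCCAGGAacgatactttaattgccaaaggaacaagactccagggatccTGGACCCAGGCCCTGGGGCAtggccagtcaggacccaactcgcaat
Kcnj2 promoter, chr11:111065961-111066163: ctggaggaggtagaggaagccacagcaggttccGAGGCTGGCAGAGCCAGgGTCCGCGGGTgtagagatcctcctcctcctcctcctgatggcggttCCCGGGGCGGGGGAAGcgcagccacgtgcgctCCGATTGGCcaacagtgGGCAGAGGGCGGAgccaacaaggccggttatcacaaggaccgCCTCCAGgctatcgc
Kcnd2 promoter, chr6:21215043-21215342: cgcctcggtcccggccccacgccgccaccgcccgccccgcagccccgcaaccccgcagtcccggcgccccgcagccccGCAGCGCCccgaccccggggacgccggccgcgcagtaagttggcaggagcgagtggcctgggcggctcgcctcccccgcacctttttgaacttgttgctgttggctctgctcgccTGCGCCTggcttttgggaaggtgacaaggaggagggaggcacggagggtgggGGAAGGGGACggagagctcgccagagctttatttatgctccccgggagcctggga
Kcnt2 promoter, chr1:140245441-140245656: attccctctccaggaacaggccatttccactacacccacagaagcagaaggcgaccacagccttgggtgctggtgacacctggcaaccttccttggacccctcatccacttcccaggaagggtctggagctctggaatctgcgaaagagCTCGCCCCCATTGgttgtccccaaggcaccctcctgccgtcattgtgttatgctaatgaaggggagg

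The stretch upstream of Kcnn1 held 16 CpG in 229 bases, and that at the Kcnd2 promoter held 31 in 300 bases. The Kcnt2 promoter stretch held 4 CpG in 216 bases. Of 13 consensus motifs searched on both strands, the Kcnn1 upstream stretch held the NRF1 motif, the EGR letters GCGTGGGCG and the GC box GGGCGG, each touching a footprint. The NRF1 motif stood in 0.116% of all 47386 shared peaks outside promoters and in 0.978% of promoter peaks, in the 200 bases around the middle of each. The EGR letters stood in 0.162% and 0.673%, and the GC box in 7.99% and 41.5%. The Kcnj2 promoter held a GC box and the CTCF core motif, and the Kcnd2 promoter a GC box outside any footprint. Such matches describe letters and not binding. The Kcnn1 downstream, Kcnab2, Kcnip2 and Kcnt2 stretches held no exact match to any of the 13 motifs. Matches with a differing letter were not searched, so related sites can be present.

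Replicate 1 had 115072 peaks and replicate 2 had 95711, with median values of 0.594 and 0.734. Values ran higher in replicate 2 at most genes: the median ratio of replicate 1 to replicate 2 at promoters was 0.799 over the potassium channel genes and 0.801 over all genes. The promoters of all 4 genes listed for the hippocampal lineage (Prox1, Neurod2, Emx2 and Lhx2), not all of them specific to neurons, were open. Their means lay between 1.82 and 3.40. An open promoter was also present in 2 of 4 astrocyte, 2 of 4 oligodendrocyte lineage, 1 of 4 microglial, 2 of 4 endothelial and pericyte, and 1 of 4 choroid plexus markers. The T cell markers Cd3e and Cd3d and the liver gene Apoa1 had no promoter peak. The liver gene Alb had an open promoter by the same definition, with 0.156 and 0.220, at the 0.167th percentile of all genes. An open promoter can thus be a very low peak. In bulk tissue, fewer cells with an open site and less opening per cell cannot be told apart.

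**Figure D1:**
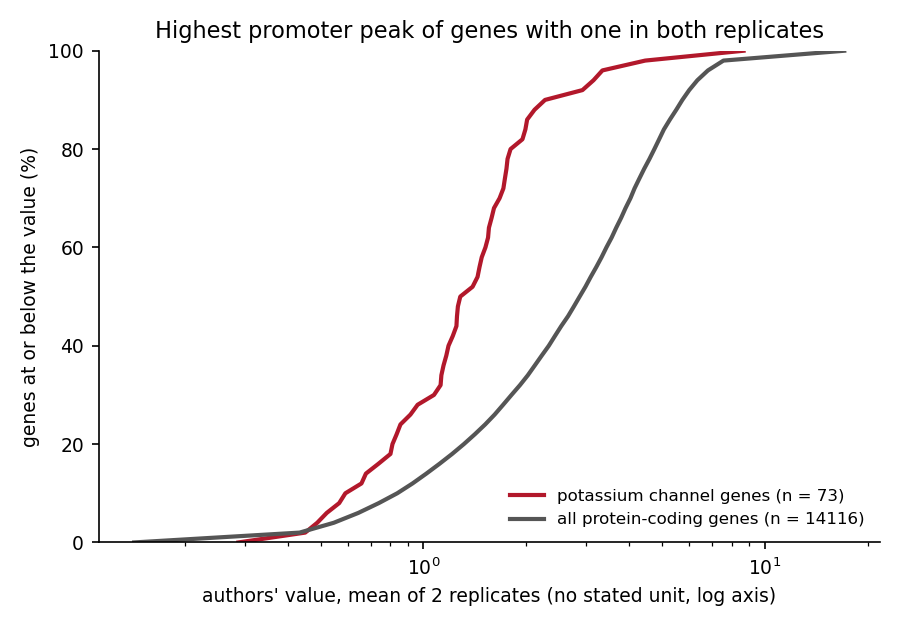
Cumulative share of genes (vertical axis, %) by the height of the highest promoter peak (horizontal axis, authors' value, mean of 2 replicates, no stated unit, log scale), for genes with an open promoter. The potassium channel curve lies to the left of the curve of all protein-coding genes over most of its length, with a median of 1.28 for potassium channel genes and 2.87 for all genes.

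Replicate 1 gave a median promoter value of 1.17 over the 73 potassium channel genes, against 2.54 over all genes, and replicate 2 gave 1.51 against 3.19. The middle of the distribution, between the quartiles, ran from 0.857 to 1.75 for potassium channel genes and from 1.57 to 4.35 for all genes. Ranked among all genes with a promoter peak, only 7 of the 73 stood above the 50th percentile, and their median percentile was 21.7. Kcnab2 alone stood above the 90th percentile, which 6.44% of all protein-coding genes did. The peaks were low but not narrow. Their median width was 380 bp in each replicate, against 300 bp for all genes, and they held a median of 4 footprints, against 5.

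The excess of open promoters belonged to low peaks. In the authors' shorter list, 55 potassium channel genes (58.5%) had an open promoter, against 59.3% of all genes, so that the excess was gone. Their median value in that list was 1.51, against 3.08. When peaks at the start of a second gene were left out, 64 potassium channel genes (68.1%) had an open promoter, against 47.1% of all genes, with a median of 1.33, against 2.33.

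Promoters rich in CpG are commonly open in most tissues, so genes were also compared within 3 classes of CpG content, the observed over expected ratio in the 500 bp either side of the gene's 5′ end. In the class of 0.6 or more, 35 of 36 potassium channel genes (97.2%) had an open promoter, against 95.1% of all genes in the class, while the median value was 1.44, against 3.47. Between 0.3 and 0.6, the counts were 29 of 31 (93.5%), against 68.8%, with a median of 1.27, against 1.75. Below 0.3, they were 9 of 27 (33.3%), against 18.8%, with a median of 0.678, against 1.42. The lower value was thus present in every class, and the higher share in the lower 2 classes. Most potassium channel genes without an open promoter, 18 of 21, were in the lowest class. They were 13 of the 15 with no promoter peak and 5 of the 6 with a peak in 1 replicate. Over all genes, the counts in that class were 5559 of 7042 and 339 of 780.

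**Figure D2:**
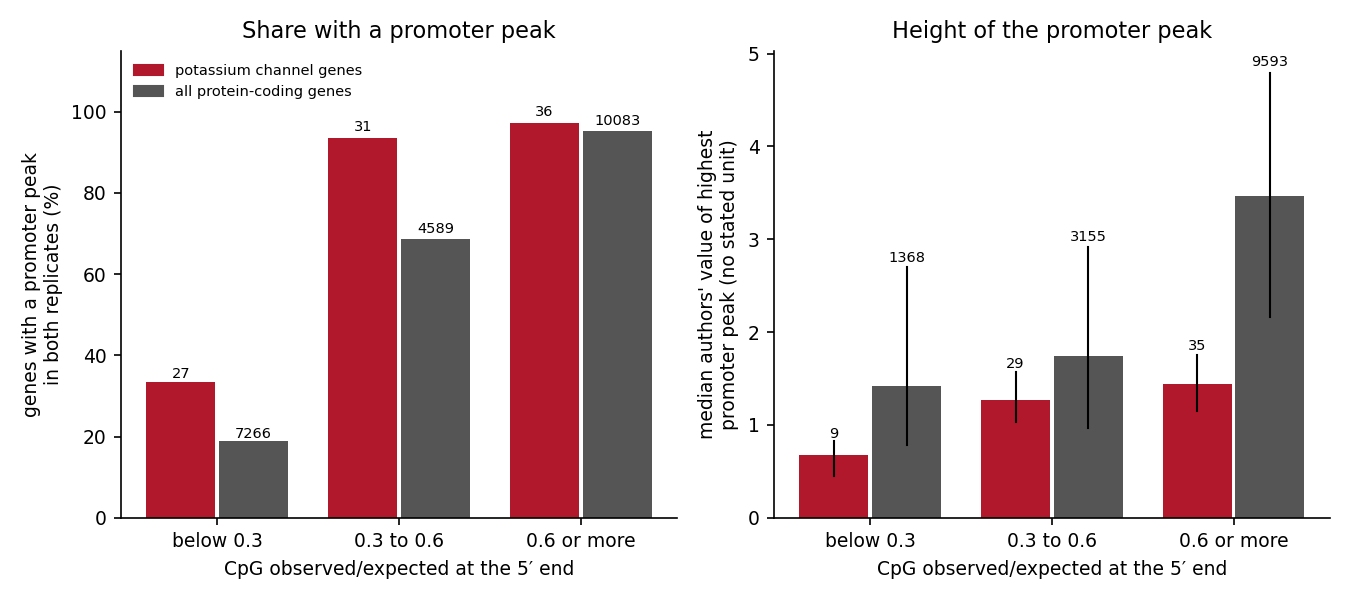
Potassium channel genes (red) and all protein-coding genes (grey) in 3 classes of CpG observed over expected ratio. Left, the percentage whose promoter was open, with the number of genes above each bar. Right, the median authors' value of the promoter peak (no stated unit), with lines from the lower to the upper quartile and the number of genes with an open promoter. In the class of 0.6 or more, potassium channel genes had a share of 97.2% and a median of 1.44, against 95.1% and 3.47 for all genes.

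Other channel families had pooled medians of similar height, in lists chosen after the data were seen. Over 44 genes of calcium, sodium and HCN channels, 36 (81.8%) had an open promoter, with a median of 1.43. The 26 calcium channel genes had a median of 1.63, the 14 sodium channel genes 1.1997 and the 4 HCN channel genes 1.31. For 18 GABA-A receptor genes it was 1.31 and for 19 ionotropic glutamate receptor genes 1.98. By CpG class, the calcium, sodium and HCN channel genes had a median of 1.30 in the class of 0.6 or more and of 1.63 between 0.3 and 0.6. Below 0.3, 8 of 11 (72.7%) had an open promoter, with a median of 1.60, above the 0.678 of potassium channel genes and the 1.42 of all genes in that class. Low values were thus also present in the other channel families at 5′ ends rich in CpG, but not in the class below 0.3.

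**Figure D3:**
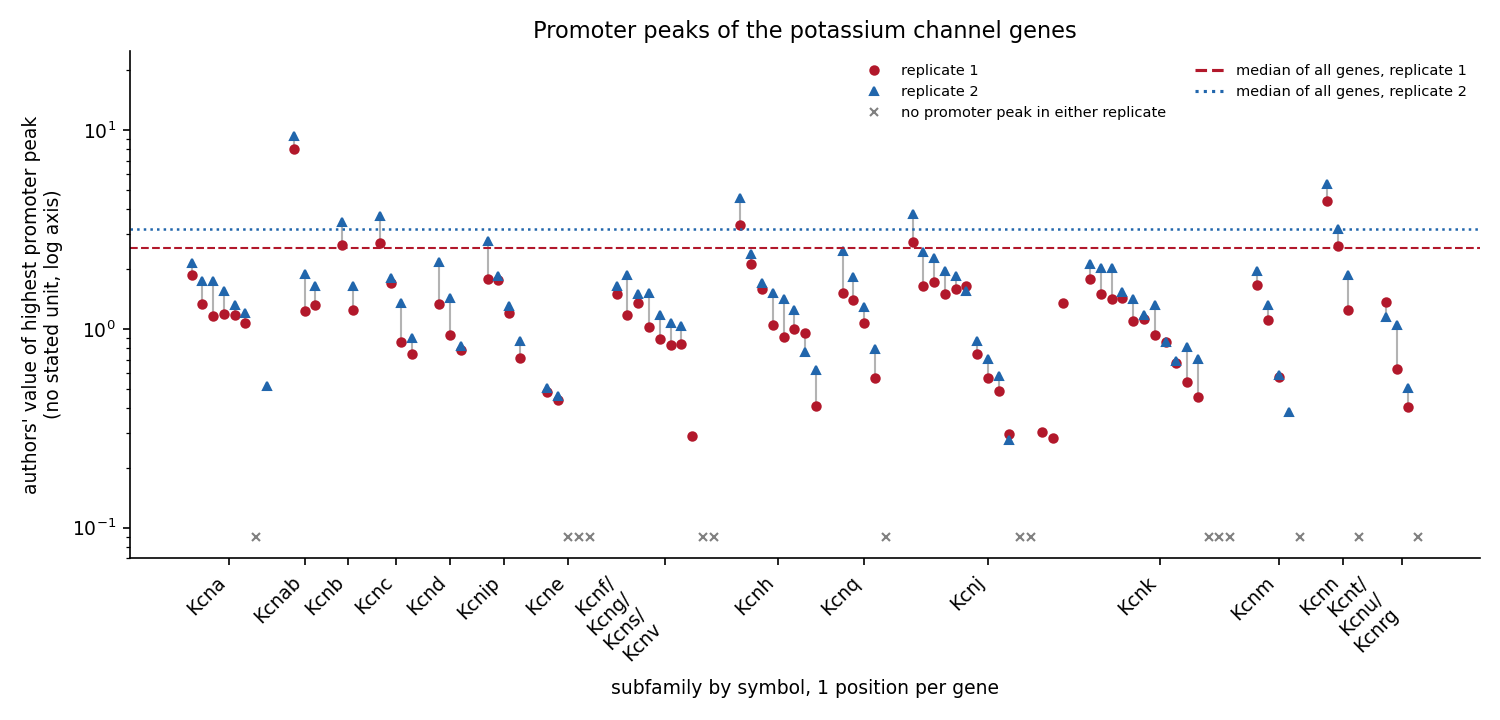
Height of the highest promoter peak (vertical axis, authors' value, no stated unit, log scale) of each potassium channel gene in replicate 1 (red circles) and replicate 2 (blue triangles), joined by grey lines and grouped by subfamily. Crosses mark the 15 genes with no promoter peak in either replicate, and a lone symbol marks a peak in 1 replicate only. Most genes lie below the dashed and dotted lines at the all-gene medians of 2.54 and 3.19.

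Among the voltage-gated subfamilies, every Kcnd and Kcnh gene had an open promoter. The Kcna genes encode Kv1 channels, which hold down the excitability of axons, and 6 of 8 had an open promoter, with a median of 1.41. Kcna2, an axonal Kv1 subunit, led with 1.87 and 2.15 (2.01 ± 0.197, SD, n = 2). Kcna1, its common axonal partner, had 1.34 and 1.74. The peaks of the 6 genes lay in a close range of means from 1.13 at Kcna6 to that of Kcna2. Kcna5 had a peak of 0.514 in replicate 2 only, and Kcna10 had none.

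Kv2 channels are delayed rectifiers of the cell body and proximal dendrites, and their gene Kcnb2 had 1.24 and 1.65. Kv3 channels, encoded by Kcnc genes, are known for fast repolarisation in fast-spiking interneurons. Kcnc1 had 1.69 and 1.81, Kcnc4 had 0.856 and 1.35, and Kcnc2 had 0.750 and 0.897. The order of these genes was the same in both replicates.

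Kv4 channels, encoded by Kcnd genes, carry the A-type current of dendrites. Kcnd2, the main Kv4 subunit of hippocampal pyramidal cells, had 1.33 and 2.17 (1.75 ± 0.593), and Kcnd3 had 0.933 and 1.43. Kcnd1, on chromosome X, had 0.778 and 0.823. Chromosome X is present once in male cells, and the median over all its genes with a promoter peak was 1.40. The calcium-binding Kv4 partners of the Kcnip subfamily all had an open promoter, led by Kcnip4 with 1.78 and 2.76 (2.27 ± 0.694). Kcnip4 had 4 separate start regions open in both replicates, more than any other potassium channel gene, with means of 2.27, 0.508, 0.396 and 0.366. Kcnip1 had 0.714 and 0.872, the lowest of the subfamily.

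Kcnab subunits bind Kv1 channels from the cytoplasm. Kcnab2 had the highest promoter value of all potassium channel genes, 7.998 and 9.31 (8.65 ± 0.928), at the 99.3th percentile of all genes. Its highest promoter peak also lay within 1000 bp of a start of Nphp4, a ciliary gene, so the peak cannot be given to Kcnab2 alone. Kcnab1 had 1.22 and 1.88, and Kcnab3 had 1.32 and 1.65. Together the Kcna and Kcnab symbols counted 9 of 11 genes with an open promoter.

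The Kcnh genes encode the EAG, ERG and ELK channels. Kcnh1 (EAG1) led with 3.34 and 4.55 (3.94 ± 0.857), and Kcnh2 (ERG1), known for repolarising the heart, had 2.12 and 2.39. The other 6 ranged in their means from 0.515 at Kcnh8 to 1.64 at Kcnh3. Kcnh6 was higher in replicate 1, with 0.948 in replicate 1 and 0.766 in replicate 2. Among potassium channel genes, its ratio of 1.24 was the farthest from the all-gene median. Kcnt2, Kcnj1 and Kcnj3 were the other 3 genes of the family that were higher in replicate 1, against 69 higher in replicate 2. Such genes were also few over the genome, where 1079 genes were higher in replicate 1 and 13037 in replicate 2. Ratios over all genes ran from 0.263 to 3.12, so that of Kcnh6 lay within their range.

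Kcnq genes encode Kv7 channels, some of which carry the neuronal M-current. Kcnq3 had 1.52 and 2.46 (1.99 ± 0.666), in a window with the start of Gm27242. Kcnq5 had 1.40 and 1.82, below Kcnq3 in both replicates. Kcnq1, the cardiac and epithelial member, had no promoter peak, although its gene held 6 shared peaks. The start of Kcnq1ot1, the antisense RNA made from within Kcnq1, had 3.00 and 2.01 (2.50 ± 0.702), while no start of Kcnq1 itself had a peak.

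The silent subunits of the Kcnf, Kcng, Kcns and Kcnv symbols form no channel alone and modify Kv2. The promoter was open in 7 of these 10 genes, between means of 0.938 and 1.57. Kcnf1 led with 1.499 and 1.64 (1.57 ± 0.0987). Kcng4 had 0.290 in replicate 1 only, and Kcns1 and Kcnv2 had no promoter peak. The Kcne subunits, which span the membrane a single time and are known mainly from heart and epithelia, had the lowest median of the subfamilies, 0.470 over 2 open promoters. Kcne1l had 0.481 and 0.505 (0.493 ± 0.0174), Kcne3 had 0.438 and 0.457, and Kcne1, Kcne2 and Kcne4 had none.

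Over the inward rectifiers, 10 of 15 Kcnj genes had an open promoter, 3 had a peak in 1 replicate only and 2 in neither. Kcnj2, a strong inward rectifier, led with 2.74 and 3.77 (3.26 ± 0.729). Its relative Kcnj4 had 1.71 and 2.26, and Kcnj12 had 0.742 and 0.864. Kcnj10, the Kir4.1 channel of astrocytes, had 1.58 and 1.84. Kcnj1, a kidney channel, had 0.297 and 0.277, the lowest of all 73 genes.

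The G protein-gated inward rectifiers, which act downstream of inhibitory receptors, were open unequally. Kcnj6 had 1.64 and 2.43 (2.04 ± 0.558), and Kcnj3 had 1.63 and 1.56. Kcnj9 had 1.35 in replicate 1 only, and the nearest replicate 2 peak, of value 1.81, lay 3137 bp from its start. Kcnj5, known as the cardiac member, had 0.283 in replicate 1 only. Of the pore subunits of ATP-sensitive channels, Kcnj11 had 1.49 and 1.96, and Kcnj8, known from vascular muscle, had 0.488 and 0.579. Of their sulphonylurea receptor partners, Abcc8 had 0.735 and 0.840, and Abcc9 had 0.283 in replicate 1 only. Kcnj15 had 0.304 in replicate 1 only, and Kcnj13 and Kcnj14 had none.

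Two-pore-domain subunits carry background leak current, and 11 of 14 Kcnk genes had an open promoter, with a median of 1.15. Kcnk10 led with 1.77 and 2.12 (1.95 ± 0.244), and Kcnk1, a leak subunit of astrocytes and neurons, had 1.499 and 2.01. Kcnk9, an acid-sensitive leak channel, had the lowest mean of the 11, with 0.453 and 0.701, although its 5′ end was rich in CpG at a ratio of 0.911. Kcnk7, Kcnk15 and Kcnk18 had none. Kcnk15 was the only potassium channel gene in the class of 0.6 or more whose promoter was not open.

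The small-conductance calcium-activated channels of the Kcnn subfamily stood highest, with a median of 2.88 over 3 genes. Kcnn2, the main SK subunit of hippocampal pyramidal cells, had 4.41 and 5.32 (4.86 ± 0.639), at the 82.1th percentile of all genes. That peak was at the second of its 4 start regions, in a window with the start of AC121957.1, and the start region farthest upstream had 1.59 and 1.83. Kcnn3 had 2.60 and 3.17 (2.88 ± 0.407), close to the all-gene median, and Kcnn1 had 1.24 and 1.86. Kcnn4, known from blood cells and epithelia, had no promoter peak but 5 shared peaks.

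Kcnma1, the pore of the BK channel, had 1.65 and 1.95 (1.80 ± 0.208), in a window with the start of 4930519K11Rik. Its neuronal beta subunit Kcnmb4 had 1.10 and 1.32 at a start shared with the antisense gene Kcnmb4os2, and Kcnmb2 had 0.573 and 0.587. Kcnmb1, the smooth muscle subunit, had 0.383 in replicate 2 only, and Kcnmb3 had none. The sodium-activated channel genes Kcnt2 and Kcnt1 had 1.36 and 1.14 (1.25 ± 0.158), and 0.629 and 1.04, in replicates 1 and 2. Kcnt2 was again higher in replicate 1. Kcnu1, a sperm channel, had 0.403 and 0.505, and Kcnrg had none.

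A promoter peak in 1 replicate only was present in 6 potassium channel genes, against 3.56% of all genes, and 5 of the 6 values were no higher than the 0.514 of Kcna5. No peak in either replicate was present in 15, against 32.1% of all genes. All 15 are named above. In 14 of these 15 genes, no base of the promoter window was listed under the false discovery rate of 0.05 in either replicate. Kcns1 was the exception, with 6 such bases in replicate 2. Of the 15 genes, 11 still had a shared peak outside promoters. Kcnq1 had 6, Kcnn4 5, Kcns1 3, and Kcna10, Kcne1 and Kcne2 2 each. Kcnv2, Kcnk7, Kcnk15, Kcnk18 and Kcnmb3 had 1 each, and Kcne4, Kcnj13, Kcnj14 and Kcnrg had none. With RefSeq start sites added to those of GENCODE, Kcns1 gained a promoter peak of 0.778 and 0.693. Kcnj15, with its replicate 1 peak of 0.304 as before, gained a peak of 0.367 in replicate 2. That peak lay 13884 bp from the nearest GENCODE start of Kcnj15, so the values of Kcnj15 are from different peaks.

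By role, 62 of 77 pore-forming genes (80.5%) had an open promoter, against 11 of 17 auxiliary genes (64.7%). The median was 1.33 for pore-forming and 1.25 for auxiliary genes. Of 20 further genes that build or anchor potassium channel complexes, 18 had an open promoter and 2 had a peak in 1 replicate only, with a median of 1.92. The highest were genes used in many cell types: the calmodulin gene Calm3 had 9.86 and 12.2, and the membrane-contact gene Vapb, a Kv2 partner, had 5.86 and 7.85. Dlg2, a synaptic scaffold, had 4.60 and 5.81. The Kv4 partners Dpp6 and Dpp10 had 1.66 and 2.32, and 0.962 and 1.47, in replicates 1 and 2, within the range of the Kcnd and Kcnip genes.

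Outside promoters, the potassium channel genes held 324 pairs of a shared peak and a gene, made of 322 different peaks, since 2 peaks lay in the regions of both Kcnip1 and Kcnmb1. Peaks of 1 replicate that overlapped each other were each counted, as at Kcnab2, Kcnn3, Kcnj6 and Kcns1, and likewise over all genes. Counts and densities can thus hold a site more than once. Of the 324 pairs, 230 were in introns, 26 in exons, 40 upstream and 28 downstream of the gene. The median distance to the nearest start of the gene was 20.01 kb, and 88 pairs lay over 50 kb away. Heights were close to the genome's, unlike at promoters: the median value was 0.728 in replicate 1 and 0.750 in replicate 2, against 0.693 and 0.726 over all shared peaks outside promoters. A footprint was present in 88.8% of them in replicate 1, against 86.3%. In replicate 2 it was present in 83.2% of the highest peaks overlapping those of replicate 1, against 80.7% of all shared peaks.

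Long genes offer more room for peaks, and the higher density was in the shorter genes. Under 20 kb, 63.2% of potassium channel genes had a shared peak outside promoters, against 38.5% of all genes, and their pooled density was 3.97 per 100 kb of gene and flanks, against 2.36. Between 20 and 100 kb, the share was 87.9% against 63.9%, and the density was 4.26 against 2.31. Over 100 kb, all 23 potassium channel genes had a shared peak, against 91.1% of all genes, and the density was 2.08 against 2.10. In the authors' shorter list, 55 potassium channel genes (58.5%) had a shared peak outside promoters, against 38.01% of all genes, so that this excess remained in it, unlike that at promoters. In the longer list, the families chosen after the data were seen had like shares. The share was 84.1% for calcium, sodium and HCN channel genes, 89.5% for ionotropic glutamate and 77.8% for GABA-A receptor genes. The pooled density of the calcium, sodium and HCN channel genes was 2.68 per 100 kb, against 2.64 for potassium channel genes. Their median lengths were 97.3 and 30.8 kb.

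**Figure D4:**
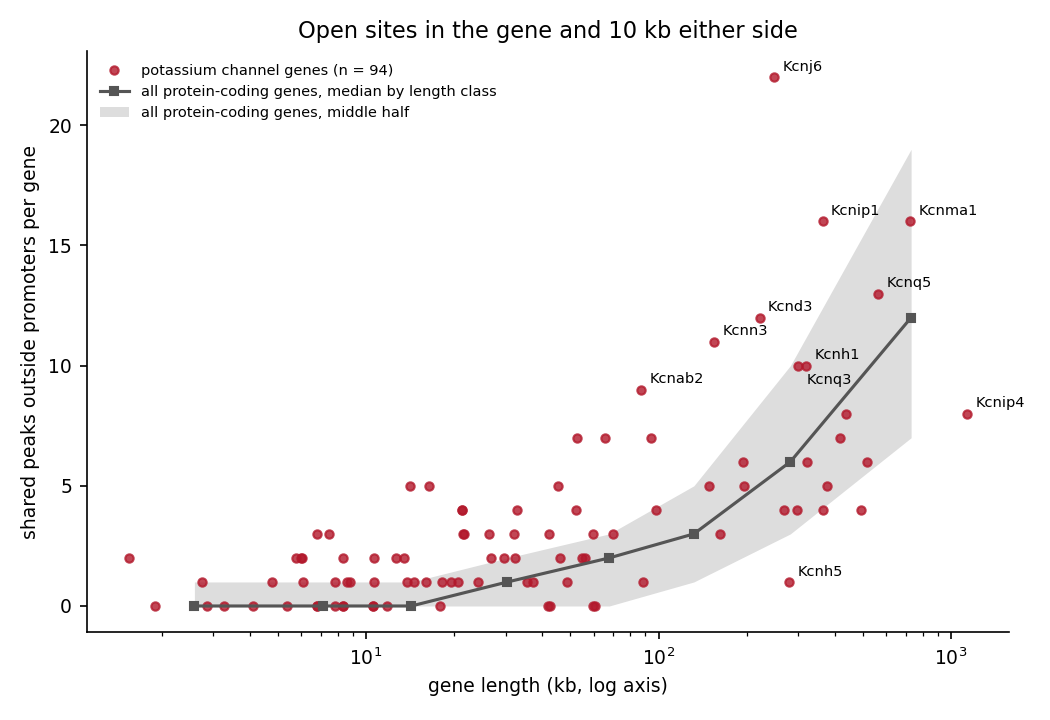
Shared peaks outside promoters per gene (vertical axis) by gene length (horizontal axis, kb, log scale) for the 94 potassium channel genes (red points), beside the median of all protein-coding genes in 8 length classes (grey squares) and the range between their quartiles (grey band). Kcnj6 stands highest with 22, and Kcnip4, the longest gene, has 8.

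The peaks were gathered on a few genes, most of them long. At least 10 shared peaks were present in 8 potassium channel genes (8.51%), against 2.07% of all genes. Kcnj6, the G protein-gated inward rectifier of dendrites, had the most, with 30 peaks in replicate 1, 26 in replicate 2 and 22 shared. That was 8.18 per 100 kb, against 2.64 over all potassium channel genes together and 2.22 over all protein-coding genes. Kcnip1 had 27 and 17 peaks, of which 16 were shared. Kcnma1 had 30 and 22, of which 16 were shared over a gene of 725 kb.

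Kcnq5 had 19 and 14 peaks with 13 shared, and Kcnq3 had 19 and 11 with 10 shared. Both counts lay within the quartiles of all genes of their length class, as did those of Kcnma1 and Kcnh1. Above the upper quartile of its class stood 3 of 14 potassium channel genes of 200 to 500 kb and 0 of 4 over 500 kb. Kcnd3 had 22 and 29 peaks with 12 shared. Kcnn3 had 16 and 17 with 11 shared, Kcnh1 had 16 and 15 with 10 shared, and Kcnab2 had 13 and 11 with 9 shared. Kcnb2 and Kcnip4 followed with 8 each. Kcnip4, at 1135 kb the longest of the family, had 0.692 per 100 kb, and Kcnh5 had 1 shared peak in 280.1 kb. Among the complex partners, Dlg2 had 34, Ank3, the anchor of Kv7 channels at the axon initial segment, had 26, and Cntnap2, a partner of Kv1 channels, had 21. Per 100 kb these were 1.71, 4.01 and 0.927, against 2.22 over all protein-coding genes, so only Ank3 was dense in them.

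Counts differed between replicates in some genes. Kcnab1 had 16 peaks in replicate 1 and 4 in replicate 2, all 4 shared. Kcnmb4 had 2 in replicate 1 and 15 in replicate 2, with 2 shared. Peaks seen in 1 replicate only were weaker, with medians of 0.424 in replicate 1 and 0.399 in replicate 2, against 0.728 and 0.750 for shared ones.

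The highest shared peak outside promoters was that upstream of Kcnn1, shown above, with 7.39 and 8.86 (8.13 ± 1.04, SD, n = 2). It was 5.25 times the mean value at the annotated Kcnn1 promoter, and lay 2.4 kb from the nearest GENCODE start. RefSeq places a start of Kcnn1 inside the peak, at position 70865691, at the edge of the printed stretch. In that annotation it is a promoter peak. In all, 29 of the shared peaks lay within 1000 bp of a RefSeq start, 19 of them of the same gene.

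The other high peaks outside promoters were lower. The Kcnab2 intron peak had 3.88 and 3.64, below the Kcnab2 promoter, and was 4.4 kb from a start. The peak downstream of Kcna6 had 3.27 and 3.50, 2.98 times the Kcna6 promoter. The Kcnip2 intron peak had 2.65 and 3.84, 2.59 times the Kcnip2 promoter, and lay 1.2 kb from a start, just past the promoter window. Kcnn3 had an intron peak of 3.30 and 3.16, close to its own promoter. The Kcnn1 downstream peak had 3.43 and 4.91 and was 1.5 kb from the start of the neighbouring gene Arrdc2.

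Of the 62 potassium channel genes with both kinds of peak, 34 (54.8%) had a shared peak outside promoters higher than their promoter peak, against 23.7% of all genes with both. Promoter heights, heights elsewhere and the number of peaks per gene all enter this count. Potassium channel genes with an open promoter had a median of 3 shared peaks outside promoters, against 1 over all genes with one. Their median lengths were 45.9 and 25.9 kb. The shares were not matched for peak number or length, and what lies behind their difference was not tested. Kcnq3, Kcnq5, Kcnma1 and Kcnj4 were among the 34, with their highest such peaks at means of 2.93, 2.39, 2.86 and 2.82. Kcnj6 was not, since its highest was 1.29 and 2.43, a mean of 1.86 against 2.04 at the promoter. The count of 34 rests on GENCODE starts, and the Kcnj4 peak lay within 1000 bp of a RefSeq start of Kcnj4 itself.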

How the data were processed

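DNase-seq had been made from 2 biological replicates of hippocampal tissue. Per the deposited file descriptions, each file came from an alignment of 1 library to mm10, so peaks were called per replicate. For the aligner and the tool that called peaks, the name is not given in the sources used here. The signal value per peak was deposited by the authors with no stated unit, in a longer and a shorter list per library, and the longer list was used. The p-value columns that the authors deposited are false discovery rates, under 0.05 for cut rate stretches and at 0.01 for footprints. Read depth is unknown, so no counting interval was given.

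Start sites of the comprehensive GENCODE M21 annotation were used, with sequence and a further set of starts from RefSeq (GRCm38.p6). The highest peak within 1000 bp of any start was taken per replicate and ranked among all genes with a promoter peak. Peaks outside promoters were counted in the gene and 10 kb either side, and were shared at an overlap of 1 bp. Overlapping peaks within 1 replicate were not merged. Motifs were searched in the 200 bases around the middle of shared peaks. Counting was tested on simulated data and run in Python 3.11.15 with numpy 2.4.6, pandas 2.3.3 and matplotlib 3.10.9.

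Named with values were the leading promoter of each subfamily, promoters open in 1 replicate, the 10 genes richest in shared peaks outside promoters, the 5 with the highest of them and the 3 with the most unequal replicates. A few genes under this rule are left out here. Other genes named with values were chosen after their values were seen. The members and lists were chosen with earlier results of these data known. Promoter stretches that lay mostly in exons were passed over for the next subfamily. With 1 group, no test was made.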

Additional observations from a re-analysis of the deposited data

How the results depend on the processing

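The number of potassium channel genes with an open promoter lay between 55 and 75 over the peak list, the promoter window (500 or 2500 bp), the gene's 5′ end alone and the added annotations, against 73 as reported, and was 75 to 77 with 1 replicate alone. The all-gene share lay between 47.1%, with peaks at other genes' starts left out, and 67.2%, with the window of 2500 bp. It was below that of potassium channel genes in every alternative but the shorter list. The median promoter value lay between 1.17 and 1.51 over these alternatives and stayed below that of all genes, which lay between 2.33 and 3.11. Genes with a shared peak outside promoters numbered 55 to 90, and 83 to 84 with 1 replicate alone. Their median number per gene was 2, and moved to 1 with the shorter list, 1 with the gene body alone and 5 with 50 kb either side, against 0, 0 and 3 over all genes. It was 3 with either replicate alone. The basic annotation, RefSeq starts and the removal of peaks at other genes' starts were alternatives chosen after seeing the data. No paired analysis was possible because there was 1 group. The unit and depth behind the peak values are unknown, which limits comparisons between the replicates.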

Other observations

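Antisense genes of the family were open at their own starts, apart from Kcnmb4os1, which had no peak there. Kcnab3os, named for the Kv beta gene Kcnab3, had 2.38 and 2.28 (2.33 ± 0.0709, SD, n = 2), above the 1.32 and 1.65 of Kcnab3 itself. Kcnd3os had a peak of 1.51 in replicate 1 and a different, non-overlapping one of 1.43 in replicate 2, of which the replicate 2 peak was also the Kcnd3 promoter peak. DNase-seq has no strand, so an opening near both starts cannot be given to either.

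Several start regions of a gene were open in some potassium channel genes. Of 184 start regions, 85 (46.2%) had a peak in both replicates, against 37.2% over all genes, and 10 genes (10.6%) had more than 1 open region, against 9.23%.

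The motif letters in shared peaks outside promoters were near those of all such peaks. The E-box CAGATG stood in 28.9% of 322 potassium channel peaks, against 26.4%, the CTCF core in 19.6%, against 17.4%, and the AP-1 letters TGANTCA in 6.52%, against 7.25%. The REST letters stood in 0 of 322, against 0.0865% of all. In promoter peaks, the ETS letters CCGGAAGT stood in 0 of 71, against 3.17% of all.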
